A study of Mus musculus with 38 samples.

Results

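The collagen chains examined were the 44 genes of the mouse collagen family whose symbols have the form Col, a type number, a and a chain number, out of 57126 genes in the tumour table. All 44 were found in each of the 4 count tables. They were grouped by class into 11 fibrillar chains, 9 chains of basement membranes and their anchoring structures, 9 network-forming and beaded-filament chains, 9 FACIT chains (fibril-associated collagens with interrupted helices), 4 transmembrane chains and 2 others, Col26a1 and Col28a1. RNA came from 38 libraries in 10 groups. In the culture experiment, 4T1 cells, a mouse mammary adenocarcinoma line that serves as a model of triple-negative breast cancer, received exosomes of insulin resistant (IR) adipocytes (3 libraries) or of insulin sensitive (IS) adipocytes (3) for 72 h, or no treatment (3). Exosomes are small vesicles that cells release, and the adipocytes were differentiated 3T3-L1 cells, a mouse line able to turn into fat cells. The brain clonogenic assay, in which tumour cells recovered from a tissue are grown out, had IR (5), IS (5) and control (5) libraries. Primary 4T1 tumours had IR (5) and control (4) libraries. For brain and tumour the labels give an IR or IS group or no treatment, and they do not state how the tumours or the brain cells were obtained. In the miRNA experiment, 4T1 cells were titled as treated with miR-145a-3p (3) or with a scrambled miRNA (2). Strain, age, sex and the number of animals are not given in the sources used here. The titles number the libraries as biological replicates but do not say whether each was its own culture or animal. The p-values therefore reflect the spread among these libraries alone, and how much of it is technical is not known.

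Collagens are the main structural proteins of the extracellular matrix. Each molecule is a rope-like helix of α chains built from Gly-X-Y repeats, in which glycine is the first residue. Some types, such as I, IV, V and VI, combine chains of more than a single gene, and many others use the chain of a single gene. Fibrillar collagens (types I, II, III, V, XI, XXIV and XXVII) make the cable-like fibrils of connective tissue and tumour stroma, where fibroblasts are a main source. Type IV collagen is the sheet under epithelia and around vessels, types XV and XVIII are carried there as proteoglycans, and type VII anchors the sheet to the tissue beneath. Types VI, VIII and X form beaded filaments or hexagonal lattices, and FACITs coat fibrils.

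The coding sequences set the fibrillar class apart by the length of its Gly-X-Y runs. The ranges of the basement membrane, network, FACIT and transmembrane chains overlapped. Runs of Gly-X-Y triplets were counted in the longest reading frame among each gene's protein-coding transcripts (GENCODE M21, GRCm38). A run was unbroken while a glycine codon stood in the same place of each triplet. The longest run was 216 to 344 triplets in the 11 fibrillar chains, with a median of 338. It was 338 in Col1a1 and 344 in Col3a1, but 216 in Col24a1 and 217 in Col27a1. Runs were shorter in the other classes, at 30 to 75 triplets in the basement membrane chains, 37 to 87 in the network chains, 32 to 113 in the FACITs, 40 to 56 in the transmembrane chains and 23 to 28 in the others.

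The genes of type IV collagen lie head to head in pairs, and the promoters of these genes are shown because the members of such pairs either moved together or differed greatly below. The annotated starts of Col4a2 and Col4a1 on chromosome 8 are 21 bases apart. Those of Col4a3 and Col4a4 on chromosome 1 are 72 bases apart in GENCODE M21, and those of Col4a5 and Col4a6 on the X chromosome are 1343 bases apart in RefSeq. RefSeq promoter windows of GRCm38.p6, from 250 bases before to 50 bases after the start, were matched for 35 of the 44 members, some with more than a single start, which gave 38 windows. In the windows below, written 5′ to 3′ on the strand of the gene, capitals mark matches on either strand to the CCAAT motif, to the GC box motif GGGCGG or to the TATA motif TATAAA. On the opposite strand the CCAAT motif reads ATTGG and the GC box reads CCGCCC. No match overlapped another. The Col4a1 window is chr8:11312777-11313076 on the minus strand, and that of Col4a2 is chr8:11312555-11312854 on the plus strand, so the windows overlap. The Col4a4 window is chr1:82586800-82587099 on the minus strand, that of Col4a5 is chrX:141475169-141475468 on the plus strand, and that of Col4a6 is chrX:141474027-141474326 on the minus strand.
Col4a1: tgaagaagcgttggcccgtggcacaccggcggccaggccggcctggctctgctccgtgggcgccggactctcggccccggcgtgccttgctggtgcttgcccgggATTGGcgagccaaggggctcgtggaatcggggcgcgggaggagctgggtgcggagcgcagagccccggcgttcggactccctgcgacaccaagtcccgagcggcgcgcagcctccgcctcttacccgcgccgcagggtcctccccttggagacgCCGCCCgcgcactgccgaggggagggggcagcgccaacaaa
Col4a2: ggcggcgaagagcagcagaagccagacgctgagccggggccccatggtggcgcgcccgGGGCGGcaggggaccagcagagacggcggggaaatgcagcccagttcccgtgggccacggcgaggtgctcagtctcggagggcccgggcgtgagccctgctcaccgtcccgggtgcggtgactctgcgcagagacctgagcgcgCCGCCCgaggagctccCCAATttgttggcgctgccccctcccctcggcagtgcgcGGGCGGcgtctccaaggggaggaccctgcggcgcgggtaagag
Col4a4: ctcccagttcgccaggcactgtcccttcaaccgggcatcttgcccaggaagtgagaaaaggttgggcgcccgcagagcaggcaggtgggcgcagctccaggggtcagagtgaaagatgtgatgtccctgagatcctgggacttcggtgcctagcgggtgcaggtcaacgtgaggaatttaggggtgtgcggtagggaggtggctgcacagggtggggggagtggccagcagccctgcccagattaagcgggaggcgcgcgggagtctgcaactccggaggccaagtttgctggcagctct
Col4a5: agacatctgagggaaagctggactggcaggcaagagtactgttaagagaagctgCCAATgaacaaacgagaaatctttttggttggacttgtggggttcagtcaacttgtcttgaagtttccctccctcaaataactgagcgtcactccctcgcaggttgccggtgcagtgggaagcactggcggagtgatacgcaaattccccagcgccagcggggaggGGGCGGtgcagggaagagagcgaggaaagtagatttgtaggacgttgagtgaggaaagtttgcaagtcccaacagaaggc
Col4a6: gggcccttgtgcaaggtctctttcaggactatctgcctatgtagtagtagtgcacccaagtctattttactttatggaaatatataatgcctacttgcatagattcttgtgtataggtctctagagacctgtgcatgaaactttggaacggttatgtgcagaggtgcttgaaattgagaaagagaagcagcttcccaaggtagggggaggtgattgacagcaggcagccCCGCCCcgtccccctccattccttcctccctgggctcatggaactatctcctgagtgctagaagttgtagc

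Col4a1 held 1 CCAAT and 1 GGGCGG match, and Col4a2 held 1 CCAAT and 3 GGGCGG matches. Col4a5 held 1 of each, Col4a6 held 1 GGGCGG match alone, and Col4a4 held no match to any of the 3 motifs. GGGCGG stood in 23 of the 38 member windows (60.5%), against 35.7% of all 32851 mouse promoter windows of the same length. CCAAT stood in 13 member windows (34.2%), against 37.4% of all, and TATAAA in 5 (13.2%), against 13.6% of all. The windows of a pair of fibrillar genes that led the tumours, Col1a2 (chr6:4505368-4505667, plus strand) and Col3a1 (chr1:45311288-45311587, plus strand), are shown for contrast. Col1a2 held 2 CCAAT and 2 GGGCGG matches, whereas Col3a1 held 1 TATAAA match and neither of the others. Such matches describe letters in these windows and were not tested as binding sites.
Col1a2: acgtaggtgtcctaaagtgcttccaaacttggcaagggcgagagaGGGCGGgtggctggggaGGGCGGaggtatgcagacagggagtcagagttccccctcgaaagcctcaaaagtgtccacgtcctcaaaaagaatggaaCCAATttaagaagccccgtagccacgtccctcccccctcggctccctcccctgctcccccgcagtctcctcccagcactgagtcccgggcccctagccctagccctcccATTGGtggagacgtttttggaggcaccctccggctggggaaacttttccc
Col3a1: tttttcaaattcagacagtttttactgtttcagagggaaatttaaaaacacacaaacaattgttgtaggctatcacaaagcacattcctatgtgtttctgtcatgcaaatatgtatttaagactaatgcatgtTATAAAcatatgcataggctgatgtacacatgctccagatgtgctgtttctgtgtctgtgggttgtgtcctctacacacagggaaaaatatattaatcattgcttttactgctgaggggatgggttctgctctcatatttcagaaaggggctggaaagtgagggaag

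Across the experiments, tumours were dominated by fibrillar collagen RNA, and brain libraries and cultured 4T1 cells by basement membrane collagen RNA. Levels are in CPM, the counts of a gene scaled to the library's summed counts of the genes tested in each table. They are set side by side between experiments without a test, because the tables were made separately. The 44 members together averaged 14277 ± 2795 CPM in IR tumours (SD, n = 5) and 8773 ± 1704 CPM in control tumours (SD, n = 4). In the brain assay the sum was 4704 ± 815 CPM in IR, 4177 ± 327 CPM in IS and 4705 ± 465 CPM in control libraries (SD, n = 5 each). In culture it was 2062 ± 79.7 CPM with IR exosomes, 2245 ± 42.3 CPM with IS exosomes and 1882 ± 12.2 CPM without treatment (SD, n = 3 each). It was 1734 ± 67.6 CPM in the libraries titled miR-145a-3p (SD, n = 3) and 2031 ± 129 CPM in those titled scramble (SD, n = 2).

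Of this collagen CPM, fibrillar chains made up 68.4% ± 5.13 in IR tumours and 60.3% ± 5.13 in control tumours. Their share was 17.1% ± 3.3 in brain IR, 23.7% ± 2.37 in brain IS and 26.7% ± 1.64 in brain control libraries, and between 2.99% and 3.75% on average in the 3 culture groups. Basement membrane chains had 65.1% ± 4.81 in brain IR, 56.1% ± 4.36 in brain IS and 53.7% ± 1.55 in brain control libraries. They had 80.2% ± 0.34 with IR exosomes, 79.1% ± 0.362 with IS exosomes and 78.5% ± 0.371 in untreated culture, against 17.2% ± 4.25 in IR tumours and 21.5% ± 1.97 in control tumours. These are sums over transcripts of different length. Per kilobase of the longest transcript, Col1a1 stood first in both tumour groups, at 658 CPM per kb in IR and 325 CPM per kb in control tumours. Col4a1 stood first in the 3 culture groups and the 3 brain groups, with 104 CPM per kb in untreated cells. In libraries titled scramble, Col7a1 led with 89.9 CPM per kb.

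**Figure D1:**
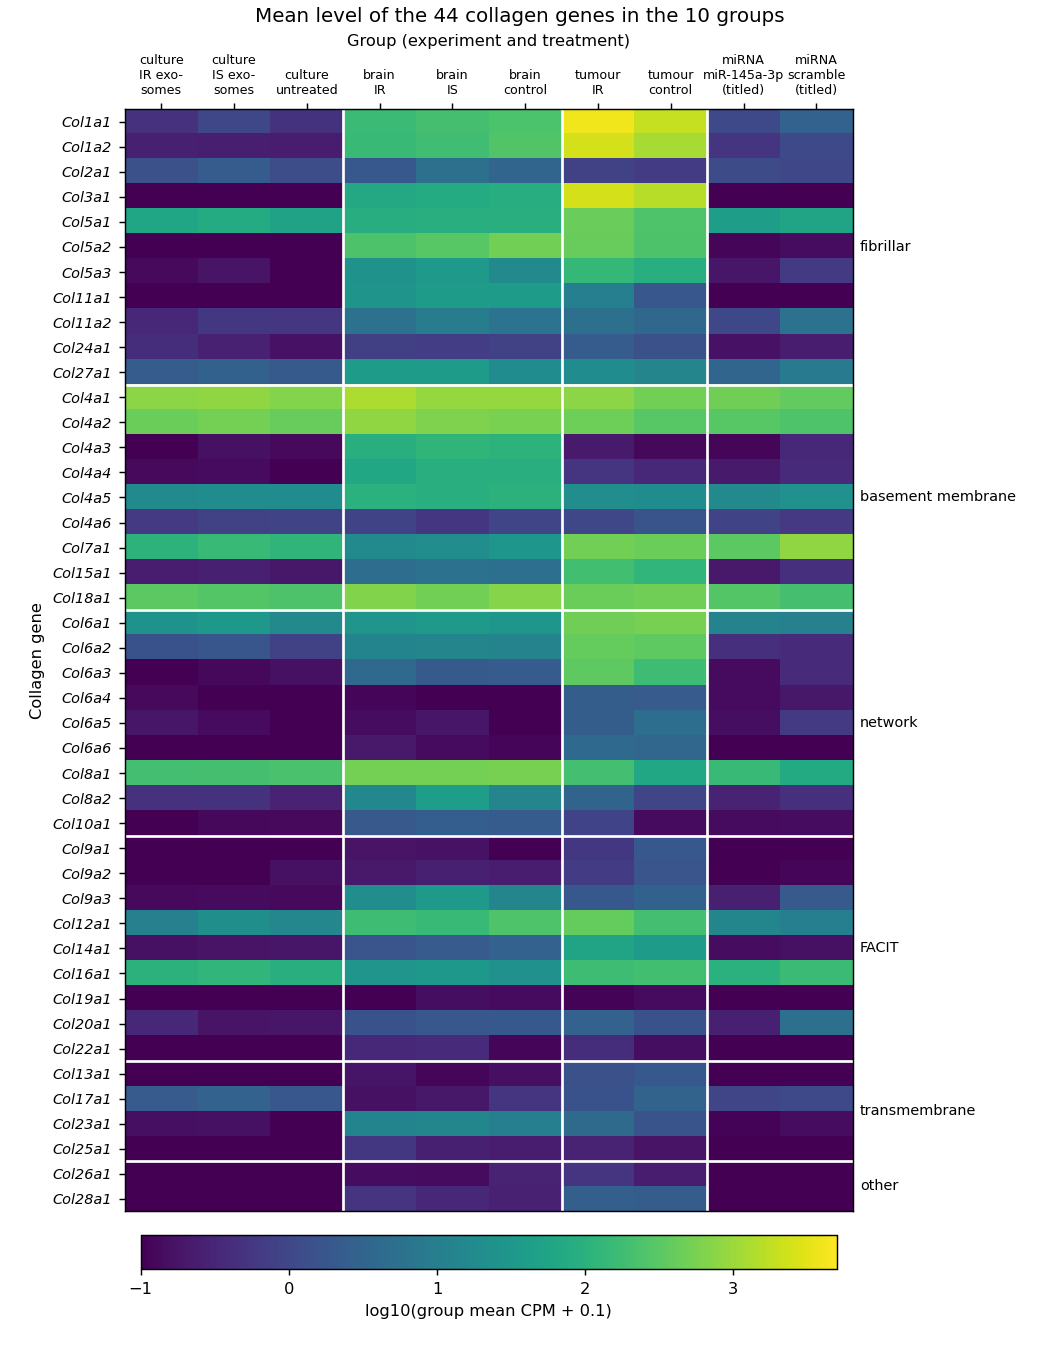
Group mean CPM of the 44 collagen genes (rows, by class) in the 10 groups (columns), as log10 of the mean plus 0.1. Fibrillar genes such as Col1a1 and Col3a1 are bright in the tumours and dark in both culture experiments, whereas Col4a1, Col4a2 and Col18a1 are bright in every group.

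Cultured 4T1 cells had RNA for fewer of the chains than the brain libraries or the tumours. Of the 44 members, 10 passed the filter of 3 CPM in at least 3 libraries in the culture table, 28 in brain, 27 in tumours and 11 in the miRNA experiment. The 10 that passed in all 4 tables were Col12a1, Col16a1, Col18a1, Col4a1, Col4a2, Col4a5, Col5a1, Col6a1, Col7a1 and Col8a1. A further 21 passed in the brain or tumour table only, and 12 passed in none, among them Col10a1, the lattice collagen of growth cartilage, and Col4a6. In culture, 11 members, including Col3a1, Col5a2 and Col11a1, had no count in any library, which allows up to 0.233 to 0.352 CPM per library (3 counts). Col5a1, the main chain of the type V fibrils that nucleate type I fibrils, had 47.0 to 80.3 CPM in the 9 culture libraries, while its partner Col5a2 had none. Col6a1 had 15.4 to 34.3 CPM there. Its partner Col6a2 had 0.447 to 1.87 CPM in the same libraries. The ratio of Col6a2 to Col6a1, per kilobase, was 0.0243 to 0.0645 in culture, 0.232 to 0.559 in the brain libraries and 0.496 to 0.816 in the tumours. Of the 10 genes of the fibroblast list, Dpt, Lum and Mfap5 were at 0 in cells given IR exosomes, together with Pi16 in cells given IS exosomes and with Pi16 and Dcn in untreated cells. The list still summed to 200 ± 6.33 CPM with IR exosomes, 209 ± 5.01 CPM with IS exosomes and 201 ± 1.42 CPM in untreated cells (SD, n = 3 each). Nearly all of that came from Gsn, at 176 ± 5.95 CPM with IR exosomes, 181 ± 2.79 CPM with IS exosomes and 188 ± 1.06 CPM in untreated cells, and from Pdgfra, at 23.5 ± 0.975 CPM with IR exosomes, 27.2 ± 3.25 CPM with IS exosomes and 13.2 ± 1.86 CPM in untreated cells. The part of stromal cells in the fibrillar RNA of the tumours was not tested. In bulk RNA, more cells of a type and more RNA per cell cannot be told apart.

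The head-to-head pairs behaved differently from each other. Col4a2 followed Col4a1 closely, with a ratio per kilobase of 0.559 to 0.654 in the exosome culture, 0.604 to 0.751 in brain, 0.568 to 0.662 in tumours and 0.65 to 0.752 in the miRNA experiment. Within these ranges some groups stood apart. The ratio was 0.633 to 0.654 with IS exosomes, 0.559 to 0.62 with IR exosomes and 0.582 to 0.625 in untreated cells. It was 0.705 to 0.752 in libraries titled scramble and 0.65 to 0.677 in those titled miR-145a-3p. Group ranges overlapped or met in brain and tumours. Col4a3 and Col4a4, chains of the specialised membrane of kidney and a few other sites, were at 62.9 to 175 CPM and 50.4 to 116 CPM in the brain libraries. In the other 3 experiments neither passed the filter. Their ratio per kilobase, Col4a4 over Col4a3, was 0.508 to 0.853 in the 15 brain libraries. Col4a5 was measured in all 4 experiments, at 89.3 to 115 CPM in brain IR, 82.0 to 108 CPM in brain IS and 93.7 to 111 CPM in brain control libraries and 10.6 to 33.7 CPM in tumours, but its neighbour Col4a6 stayed between 0.151 and 1.96 CPM in those libraries. The ratio of Col4a6 to Col4a5 per kilobase was at most 0.0935 in any of the 38 libraries. Col1a2 over Col1a1, the chains of type I collagen, was 0.669 to 0.77 in the tumours and 0.825 to 1.68 in the brain libraries.

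**Figure D2:**
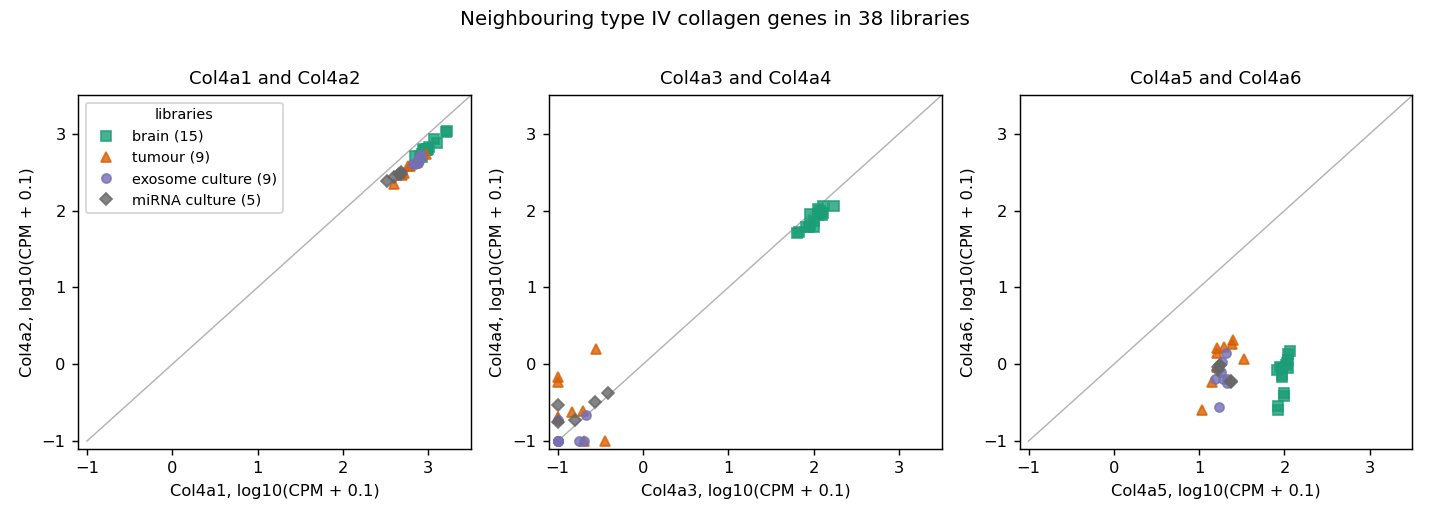
Level of each gene of a head-to-head pair against its neighbour in 38 libraries, as log10 of CPM plus 0.1 on both axes, with a grey line of equality. Col4a1 and Col4a2 lie along a line in every experiment, Col4a3 and Col4a4 are high in the brain libraries alone, and Col4a6 stays between 0.151 and 1.96 CPM at any level of Col4a5.

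Exposure of 4T1 cells to exosomes was studied first without a host. With IR exosomes, several of the collagen genes that these cells express were higher than in untreated cells, by 1.11-fold to 1.44-fold. Of the 10 members tested, 5 rose and 1 fell by edgeR's quasi-likelihood test with Benjamini-Hochberg adjustment over all genes, while over all 10888 genes 13.6% were called, 6.67% higher and 6.9% lower. The groups did not overlap in 7 members, and in 30.2% of all genes. The members' median log2 fold change was 0.13, against 0.00 over all genes.

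Col18a1, whose protein carries the endostatin fragment at its end, had 336, 306 and 324 CPM with IR exosomes, 265, 281 and 281 CPM with IS exosomes, and 249, 239 and 247 CPM in untreated cells. Every library of the IR group was above every other library. Its log2 fold change against untreated cells was 0.39 ± 0.041 (SE), with an adjusted p of 4.96e-06 by edgeR's quasi-likelihood test. Col6a1, a chain of beaded filaments, had 27.8, 24.2 and 23.8 CPM with IR exosomes, 32.0, 34.3 and 30.1 CPM with IS exosomes, and 17.4, 19.8 and 15.4 CPM in untreated cells, a log2 fold change of 0.53 for IR against untreated (adjusted p 0.0021, edgeR). Col4a1 had 757, 755 and 783 CPM with IR exosomes, 808, 826 and 829 CPM with IS exosomes, and 664, 702 and 693 CPM in untreated cells. The groups did not overlap, and the rise with IR exosomes was 1.11-fold (adjusted p 0.00355, edgeR). Its partner Col4a2 had 458, 412 and 443 CPM with IR exosomes, against 405, 398 and 417 CPM in untreated cells, which overlapped and gave an adjusted p of 0.107 by edgeR.

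Col8a1, a chain of the lattice of vessel walls and the cornea, was the member that fell. It had 204, 197 and 200 CPM with IR exosomes, 204, 200 and 205 CPM with IS exosomes, and 214, 235 and 227 CPM in untreated cells (log2 fold change -0.17 for IR, adjusted p 0.00692 by edgeR). Col16a1, a FACIT made by many cell types, had 111, 98.0 and 100.0 CPM with IR exosomes, 121, 123 and 121 CPM with IS exosomes, and 91.4, 82.5 and 89.3 CPM in untreated cells. Col5a1 had 58.9, 59.8 and 62.5 CPM with IR exosomes, 76.1, 75.6 and 80.3 CPM with IS exosomes, and 54.3, 47.0 and 54.6 CPM in untreated cells. Both rose with IR exosomes, by 0.23 (adjusted p 0.0119) and 0.21 (adjusted p 0.0289) on the log2 scale by edgeR. Without untreated replicate 2, Col16a1, Col8a1 and Col5a1 lost their calls (adjusted p 0.0644, 0.0513 and 0.124 by edgeR) and the count of called members was 3. Over all 10865 genes of that fit 530 were higher and 547 lower, against 726 and 751 with all libraries. Col5a1 also lost its call without IR replicate 2 (0.0507) or IR replicate 3 (0.143). Col7a1 (84.6, 103 and 141 CPM with IR exosomes, 106, 108 and 145 CPM in untreated cells) and Col4a5 (17.2 to 18.8 CPM with IR exosomes, 15.1 to 21.0 CPM in untreated cells) overlapped between the groups and were not called.

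Most of the collagen genes tested rose with IS exosomes, which were compared with the same untreated libraries. Of the 10 tested members, 7 rose and 1 fell, where 19.3% of all genes were called (9.97% higher and 9.32% lower). Groups did not overlap in 8 members and in 36.8% of all genes. The median member changed by 0.32 on the log2 scale. The largest rise was that of Col6a1, 1.83-fold (adjusted p 1.14e-05 by edgeR), in the libraries listed above. Col5a1 rose 1.49-fold (adjusted p 5.3e-06) and Col16a1 rose 1.38-fold (adjusted p 1.79e-05, both by edgeR). Col4a2 had 501, 527 and 512 CPM with IS exosomes, and all 3 libraries were above those of the other groups. It rose by 0.34 on the log2 scale (adjusted p 2.37e-05), and Col4a1 rose by 0.26 (adjusted p 2.85e-05, edgeR). Col18a1 rose by 0.17 (adjusted p 0.00862) and Col8a1 fell by 0.15 (adjusted p 0.0133, edgeR). The fall of Col8a1 lost its call without untreated replicate 2, untreated replicate 3 or IS replicate 2 (adjusted p 0.0533 to 0.0821, edgeR).

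Col12a1, a FACIT that bridges fibrils in tissue under strain, separated the exosomes most. It had 9.33, 12.1 and 12.1 CPM with IR exosomes, 21.2, 21.5 and 21.8 CPM with IS exosomes, and 13.8, 17.1 and 13.1 CPM in untreated cells. The IS group stood above and the IR group below the untreated libraries, without overlap. IS exosomes raised it by 0.56 on the log2 scale (adjusted p 0.00278), the difference of IR from untreated was -0.37 (adjusted p 0.0646), and that of IR from IS was -0.94 ± 0.12 (SE), a 1.92-fold lower level with IR exosomes (adjusted p 0.000276, all by edgeR).

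In the direct comparison of IR with IS exosomes, 1 member was higher and 5 were lower, where 6.27% of all genes were called (2.82% higher and 3.45% lower), and the groups did not overlap in 7 members and in 26.6% of all genes. The member that was higher with IR exosomes was Col18a1, by 0.22 on the log2 scale (adjusted p 0.00411, edgeR). Besides Col12a1, those that were lower were Col5a1 (-0.36, adjusted p 0.00213), Col4a2 (-0.23, 0.00352), Col16a1 (-0.24, 0.0168) and Col6a1 (-0.34, 0.0387), given as log2 fold change and edgeR adjusted p. Leaving out IS replicate 2 or 3, or IR replicate 2 or 3, ended the call of Col16a1 (adjusted p 0.0529 to 0.0708), and leaving out any IS replicate, or IR replicate 2 or 3, ended that of Col6a1 (0.0616 to 0.128, edgeR). Without a single library the called members numbered 4 to 7. Over all genes, these fits called from 130 higher and 165 lower (without IS replicate 3) to 388 higher and 483 lower (without IR replicate 1). With all libraries it was 307 higher and 376 lower.

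**Figure D3:**
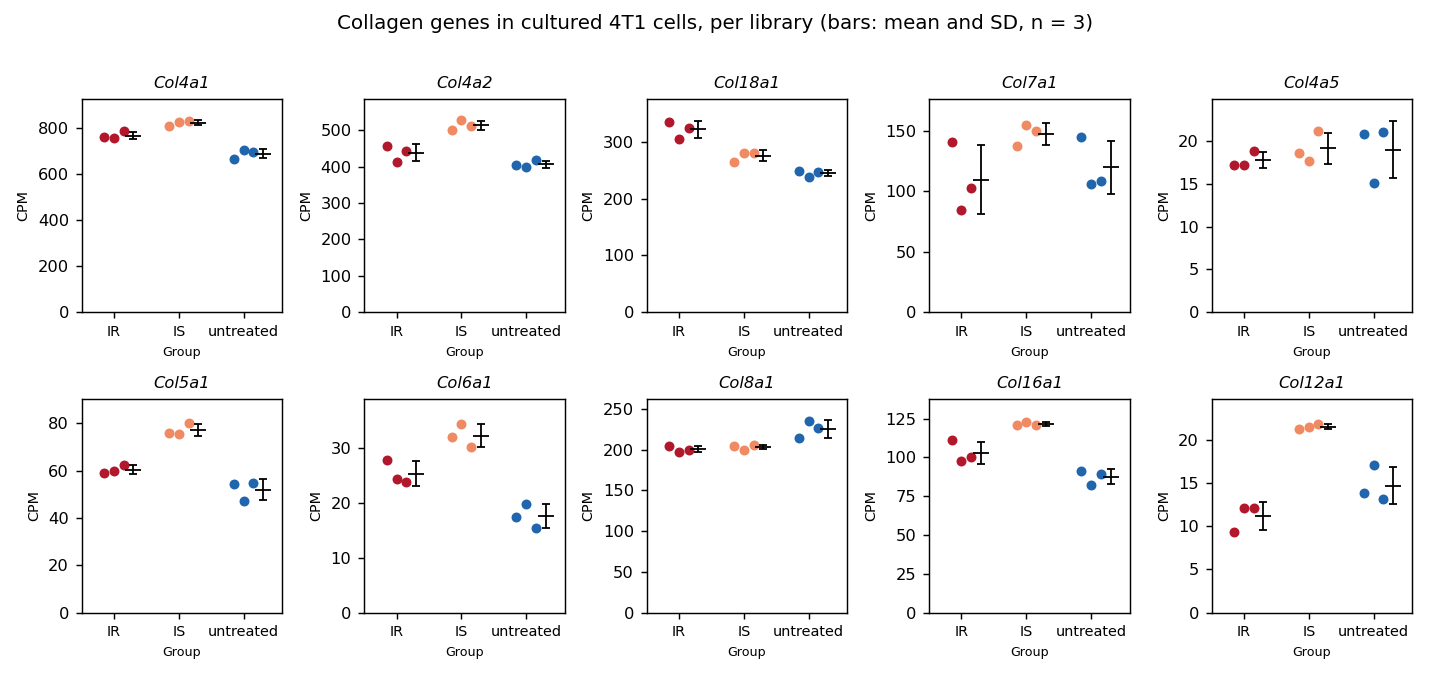
CPM of the 10 tested collagen genes in each culture library, with mean and SD (n = 3) beside the points, for IR exosomes, IS exosomes and untreated cells. Col12a1 is highest with IS exosomes (21.2 to 21.8 CPM) and lowest with IR exosomes (9.33 to 12.1 CPM), and Col18a1 is highest with IR exosomes.

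Among 73 genes for making, maturing, binding, sensing and degrading collagen, 42 were tested in culture. With IR exosomes 7 rose and 6 fell, where 13.6% of all genes were called. With IS exosomes 14 rose and 6 fell, where 19.3% of all genes were called. Between IR and IS exosomes 4 were lower and 0 higher, where 6.27% of all genes were called. Mmp13, a collagenase, averaged 8.87 ± 0.308 CPM with IR exosomes, 9.89 ± 0.622 CPM with IS exosomes and 2.95 ± 0.193 CPM in untreated cells (SD, n = 3 each), and it rose 2.99-fold with IR exosomes (edgeR adjusted p 3.1e-06). Mmp9, a gelatinase that cleaves type IV collagen, fell by 0.73 on the log2 scale with IR exosomes (adjusted p 1.04e-09) and by 0.41 with IS exosomes (adjusted p 1.02e-06, edgeR). Postn, a matrix protein that helps to assemble fibrils, averaged 1.36 ± 0.157 CPM with IR exosomes, 2.06 ± 0.551 CPM with IS exosomes and 6.25 ± 0.968 CPM in untreated cells. Of the receptors, Ddr1, a collagen-binding kinase, rose by 0.30 with IR and 0.37 with IS exosomes (adjusted p 0.00243 and 0.000305, edgeR), and Adgrg1, an adhesion receptor that binds collagen type III, rose by 0.46 and 1.03 (adjusted p 0.0016 and 1.85e-07, edgeR). Prolyl 3-hydroxylase P3h2, which acts on type IV chains, rose by 0.55 and 0.76 with the same exosomes. Serpinh1, the collagen chaperone, had 426 ± 6.34 CPM with IR exosomes, 425 ± 11.5 CPM with IS exosomes and 405 ± 11.6 CPM in untreated cells (SD, n = 3 each).

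The brain libraries went against their cell type label, and this precedes their results. They are labelled 4T1 mammary adenocarcinoma cells, but the 9 mammary epithelial markers summed to 121 to 256 CPM in the 15 brain libraries, against 3741 to 3747 CPM in untreated cultured 4T1 cells. Epcam, an epithelial adhesion protein, had 0.279 to 2.91 CPM in brain libraries, against 170 to 193 CPM in untreated culture. Igfbp2, the most abundant of the meningeal fibroblast list, had 5880 to 15142 CPM in brain libraries and 0 in untreated culture. Ttr, a marker of choroid plexus, had 235 to 3328 CPM in brain libraries. All 8 endothelial markers rose in brain IR against control libraries and 5 of 8 in IS against control, at summed levels of 458 to 990 CPM in IR, 155 to 761 CPM in IS and 117 to 168 CPM in control libraries. The 5 choroid plexus and ependyma markers summed to 1002 to 2054 CPM in IR, 1402 to 3824 CPM in IS and 493 to 1407 CPM in control libraries, with 0 rising and 1 falling in IR, and 1 rising and 1 falling in IS. Macrophage and microglia markers summed to 102 to 326 CPM in IR, 197 to 793 CPM in IS and 398 to 554 CPM in control libraries. Over all genes, 11.7% were called in IR and 6.46% in IS against control libraries. The part of any of these cell types in the collagen differences below was not tested.

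Summed over the class, fibrillar chains had 499 to 989 CPM in brain IR, 906 to 1092 CPM in brain IS and 1033 to 1471 CPM in brain control libraries. The IS range overlapped both others, and the sums were not tested. Single fibrillar chains went in both directions. The common type IV chains Col4a1 and Col4a2 were called higher in IR, with groups that overlapped. Of 28 tested members 3 rose and 4 fell, where 11.7% of all genes were called (6.45% higher and 5.27% lower), and groups did not overlap in 3 members and in 11.8% of all genes. The median member changed by -0.08 on the log2 scale. By class, 1 of 10 fibrillar chains rose and 3 fell, 2 of 8 basement membrane chains rose and 1 fell, and none of the 5 network, 4 FACIT and 1 transmembrane chains tested was called.

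Col5a2, a partner chain in type V fibrils, had 303, 170, 165, 306 and 285 CPM in IR, 304, 259, 299, 303 and 356 CPM in IS, and 438, 407, 545, 575 and 540 CPM in control libraries. All control libraries were above all others. It fell by 1.03 ± 0.169 (SE) on the log2 scale in IR (adjusted p 0.00144) and by 0.72 ± 0.168 in IS (adjusted p 0.0192, edgeR). Without IS replicate 2 the adjusted p in IS was 0.0503. Its sister chain Col5a1, with 65.3 to 109 CPM in IR, 70.8 to 104 CPM in IS and 72.6 to 106 CPM in control libraries, was not called. The ratio of Col5a2 to Col5a1 per kilobase was 2.83 to 5.05 in IR, 3.16 to 5.43 in IS and 6.5 to 7.87 in control libraries.

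Col1a2, a chain of type I collagen, had 183, 142, 68.2, 214 and 167 CPM in IR, 205, 157, 204, 170 and 166 CPM in IS, and 227, 233, 307, 294 and 271 CPM in control libraries. It fell by 0.78 in IR (adjusted p 0.022), and the change in IS was -0.56 (adjusted p 0.114, edgeR) although groups did not overlap. In IR the call was lost without control replicate 3 (0.0512) or 4 (0.0541). Col1a1 had 77.7 to 199 CPM in IR, 162 to 276 CPM in IS and 182 to 281 CPM in control libraries and was not called (adjusted p 0.0829 for IR, edgeR). Col11a1, which helps to set fibril width, had 26.4, 22.5, 23.5, 36.3 and 24.3 CPM in IR, against 28.6, 36.4, 39.2, 41.3 and 41.6 CPM in control libraries, and IR replicate 4 overlapped the controls. Its fall of 0.50 (adjusted p 0.0482) lost its call on leaving out any library of control replicates 2 to 5 or of IR replicates 1, 2, 3 and 5 (0.0795 to 0.121, edgeR).

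Col27a1, a fibrillar chain known from cartilage and with the short Gly-X-Y run given above, went the other way. It had 42.5, 31.6, 43.1, 22.5 and 46.0 CPM in IR, 25.3, 58.9, 29.0, 38.9 and 33.2 CPM in IS, and 17.5, 14.5, 19.8, 22.0 and 22.0 CPM in control libraries. Every IR and IS library was above every control library, though the lowest IR library (22.5 CPM) was close to the highest controls (22.0 CPM). The difference between groups was 1.93-fold for IR (adjusted p 0.0121) and 1.92-fold for IS (adjusted p 0.0198, edgeR). The IS call was lost without control replicate 2 (0.0547).

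Col4a1 had 1604, 970, 1255, 1013 and 1665 CPM in IR, 888, 1171, 859, 694 and 839 CPM in IS, and 838, 804, 968, 994 and 945 CPM in control libraries. Col4a2 had 1068, 621, 769, 681 and 1086 CPM in IR, 628, 848, 618, 508 and 550 CPM in IS, and 493, 507, 628, 634 and 619 CPM in control libraries. IR replicates 1 and 5 were the highest for both genes, and within IS replicate 2 was the highest for both. Both rose in IR, by 0.52 ± 0.154 (adjusted p 0.0394) and 0.55 ± 0.163 (adjusted p 0.0367, edgeR) on the log2 scale, with overlapping groups. Neither call held when any control library, or IR replicate 1, 3 or 5, was left out (0.061 to 0.105 for Col4a1, 0.0538 to 0.101 for Col4a2). The endothelial markers summed to 829, 689, 893, 458 and 990 CPM in IR and 389, 761, 298, 224 and 155 CPM in IS libraries. In control libraries they summed to 168, 156, 117, 165 and 141 CPM. IR replicate 5 and IS replicate 2 had the highest sum and the highest Col4a1 and Col4a2 of their groups. This did not hold in the control group. There, replicate 1 had the highest sum but the lowest Col4a2 (493 CPM), and replicate 4 had the highest Col4a1 (994 CPM) and Col4a2 (634 CPM). The part of endothelial cells in the rise was not tested. Col4a3 (62.9 to 102 CPM in IR, 67.6 to 128 CPM in control) and Col4a4 (50.4 to 91.5 CPM in IR, 52.2 to 116 CPM in control) overlapped and were not called.

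Col18a1 had 732, 539, 585, 609 and 770 CPM in IR, 565, 617, 487, 412 and 443 CPM in IS, and 658, 668, 823, 672 and 696 CPM in control libraries. All IS libraries were below all controls, and it fell by 0.48 in IS (adjusted p 0.0249, edgeR), a call lost without control replicate 3 or IS replicate 3, 4 or 5 (0.0515 to 0.0699). Col7a1, the anchoring fibril chain, had 21.3, 16.6, 8.43, 13.9 and 24.9 CPM in IR, 21.4, 25.5, 21.9, 16.2 and 15.7 CPM in IS, and 24.2, 20.2, 33.4, 34.4 and 34.1 CPM in control libraries. It fell by 0.78 in IR (adjusted p 0.039, edgeR), lost without control replicate 3, 4 or 5 or IR replicate 2, 3 or 4 (0.0676 to 0.092). Col8a1, among the 5 highest members, had 398 to 598 CPM in IR, 424 to 614 CPM in IS and 475 to 614 CPM in control libraries, and it was not called.

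In brain IS against control libraries, 4 of the 28 members rose and 3 fell, where 6.46% of all genes were called (3.37% higher and 3.1% lower), and groups did not overlap in 8 members and in 7.81% of all genes. The median member changed by 0.04. Those that rose were Col27a1, Col9a3, Col11a2, a partner of Col11a1, and Col5a3, another type V chain. Col11a1 itself (log2 fold change 0.08, adjusted p 0.82) and Col2a1 (0.72, adjusted p 0.169, edgeR) were not called. Col9a3, a chain of the FACIT that coats type II fibrils, had 27.0, 13.3, 15.6, 29.5 and 14.1 CPM in IR, 35.0, 27.6, 30.5, 28.1 and 55.0 CPM in IS, and 8.25, 11.4, 17.9, 13.7 and 18.0 CPM in control libraries. It rose 2.54-fold in IS (log2 1.35 ± 0.267, adjusted p 0.00746, edgeR). IS replicate 5 had the highest Col9a3, the highest Col8a2 (113 CPM, against 10.7 to 44.5 CPM in the other IS libraries) and the highest sum of choroid plexus and ependyma markers (3824 CPM). Their part in the rise was not tested.

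Col5a3 had 37.5, 19.7, 16.9, 22.6 and 33.9 CPM in IR, 30.5, 38.1, 30.8, 34.7 and 30.7 CPM in IS, and 12.5, 13.8, 17.1, 19.9 and 25.2 CPM in control libraries. It rose by 0.89 in IS (adjusted p 0.0212, edgeR), a call lost without control replicate 1, 2 or 3 (0.0501 to 0.0583). Col11a2, which averaged under 10 CPM and is named for the count, had 8.94 to 10.4 CPM in IS and 4.19 to 8.04 CPM in control libraries. Its call (adjusted p 0.0402) was lost without any library other than control replicate 4 (0.0518 to 0.0995, edgeR). Col12a1 had 230, 171, 102, 207 and 169 CPM in IR, 137, 163, 184, 117 and 126 CPM in IS, and 270, 268, 199, 278 and 272 CPM in control libraries. It fell by 0.82 ± 0.175 in IS (adjusted p 0.011), and the change in IR, -0.55, had an adjusted p of 0.0502 (edgeR). The IR and IS comparisons share the 5 control libraries. Without IS 1 and IS 2, the IS libraries with the highest endothelial sums, chosen after seeing the data, 3 members rose and 2 fell, and Col5a3, Col11a2 and Col5a2 were no longer called (adjusted p 0.0544, 0.0757 and 0.08, edgeR). Over all 12835 genes of that fit 378 were higher and 305 lower, against 435 and 400 with all libraries.

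Between brain IR and IS libraries no member was called by edgeR, where 6 of 12924 genes (0.0464%) were called, 0.0232% higher and 0.0232% lower. An unadjusted p under 0.05 was found in 11 of the 28 members and in 2344 of the 12924 genes, and the groups did not overlap in 2 members, against 1.89% of all genes. The smallest adjusted p was 0.0682 for Col2a1, the chain of cartilage fibrils, with 1.26 to 2.55 CPM in IR and 2.61 to 8.29 CPM in IS libraries. Col2a1, among the 2 members without overlap, was below 3 CPM in every IR library. It passed the filter only with the IS libraries, where it was high, so its difference is not separate from the filter. DESeq2 called 5 members, with Col4a1 higher in IR (0.54) and Col2a1, Col11a2, Col11a1 and Col9a3 lower (-1.51, -0.7, -0.58 and -0.83 on the log2 scale). Over all 12924 genes DESeq2 called 274 higher and 330 lower. By edgeR 8 members were called without IS replicate 2, where 542 genes in all were higher and 597 lower. Without IR replicate 4, 2 members were called (103 genes higher and 42 lower in all), and without IS replicate 1, 1 member was called (50 higher and 150 lower in all).

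**Figure D4:**
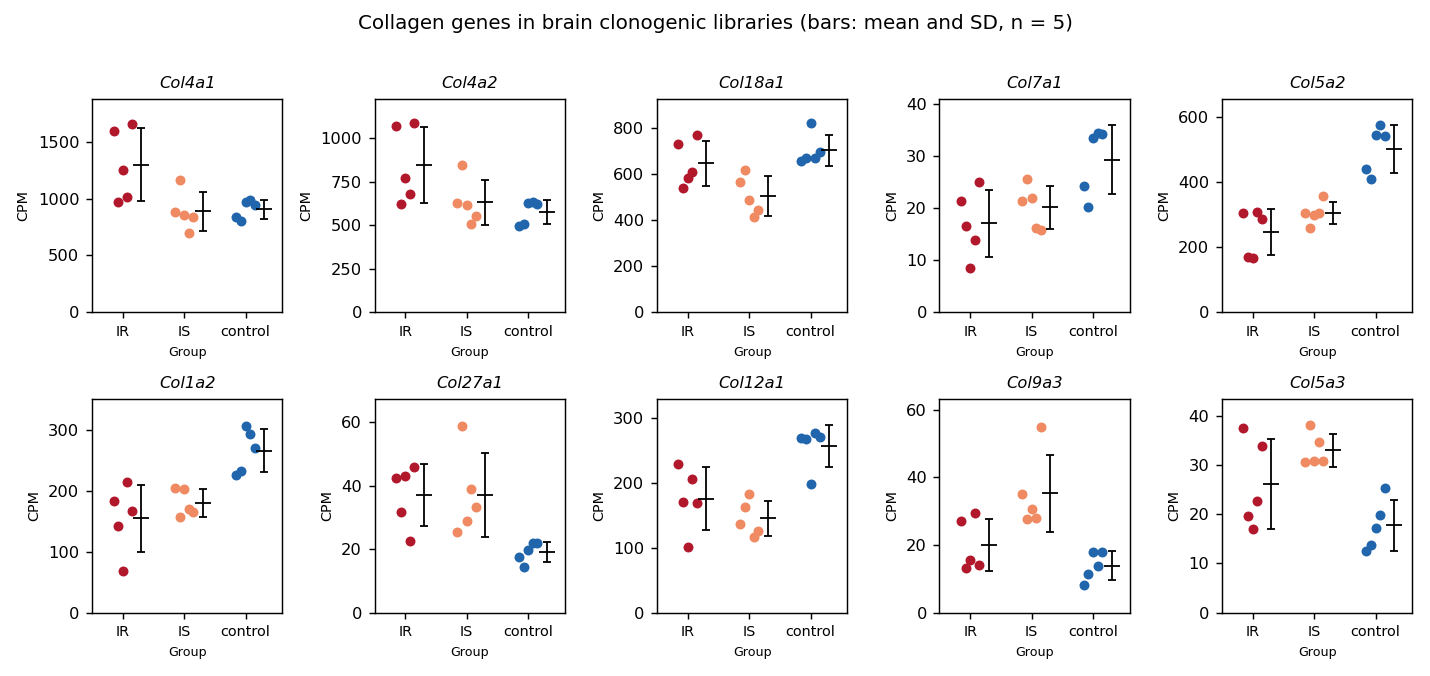
CPM of 10 collagen genes in each brain clonogenic library, with mean and SD (n = 5), for IR, IS and control. Col5a2 is highest in all 5 control libraries, Col27a1 is lowest in them, and Col4a1 is highest in IR replicates 1 and 5.

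Of the 73 collagen-handling genes, 63 were tested in brain. Against control, 6 rose and 9 fell in IR, and 0 rose and 6 fell in IS. None was called between IR and IS. Over all genes, 11.7%, 6.46% and 0.0464% were called in these comparisons. Enzymes that crosslink fibrils had the smallest adjusted p in both comparisons with control. Lox, lysyl oxidase, averaged 344 ± 96.8 CPM in IR, 330 ± 40.6 CPM in IS and 910 ± 79 CPM in control libraries (SD, n = 5 each), a fall of 1.40 in IR (adjusted p 0.000222) and 1.46 in IS (adjusted p 0.000195, edgeR). Loxl2, a relative that also acts on type IV collagen, averaged 442 ± 106 CPM in IR, 423 ± 58.2 CPM in IS and 897 ± 84.5 CPM in control libraries, while Loxl4 rose in IR by 1.43 (adjusted p 0.0313, edgeR). P4ha1, a prolyl hydroxylase that stabilises the helix, fell by 0.33 in IR (adjusted p 0.00634) and by 0.47 in IS (adjusted p 0.000857, edgeR). Creb3l1, a transcription factor that turns on type I collagen, averaged 14.6 ± 2.62 CPM in IR, 11.9 ± 1.78 CPM in IS and 21.1 ± 1.94 CPM in control libraries. Nid1, which links laminin with type IV collagen, rose by 0.73 in IR (adjusted p 0.0236, edgeR), and so did the collagen-binding integrin subunit Itga2, by 1.26 (adjusted p 0.0137, edgeR). Ctsk, a collagen-cleaving protease, fell by 0.62 in IR and Mmp2, a gelatinase, by 0.70 in IS (adjusted p 0.0268 and 0.00322, edgeR).

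In the primary tumours every fibrillar chain tested had a higher level in IR than in control, but no member passed the threshold with edgeR. No gene at all was called by edgeR (0% of 12962), although 991 had an unadjusted p under 0.05, among them 14 of the 27 tested members. Of these 27, 22 had a positive and 5 a negative log2 fold change, and the median was 0.54, against 0.01 over all genes. All 9 fibrillar chains tested were positive, with a median of 0.73. Of the positive members, Col11a1, Col11a2 and Col23a1 passed the filter only with the IR tumours, where they were high. Of the negative members, Col17a1 and Col6a5 passed it only with the control tumours, where they were high. The signs of these members, and the DESeq2 call of Col11a1 below, are not separate from the filter. In 5 members the groups did not overlap, against 2.41% of all genes. The smallest adjusted p was 0.369. DESeq2, the authors' tool, called 8 members, all higher in IR, and 124 genes in all, 96 higher and 28 lower.

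Col1a1 had 2617, 3069, 4318, 5353 and 4165 CPM in IR tumours, against 1180, 1935, 2547 and 2037 CPM in control tumours. Every IR tumour was above every control tumour, with a log2 fold change of 1.02 ± 0.256 (SE; adjusted p 0.452 by edgeR, 0.0104 by DESeq2). Col1a2 had 1585, 1912, 2889, 3485 and 2587 CPM in IR tumours, against 820, 1193, 1536 and 1292 CPM in control tumours (1.04 ± 0.252, adjusted p 0.436 by edgeR, 0.00631 by DESeq2). Col3a1, the fibrillar chain of soft tissues, had 1631, 2352, 2743, 2843 and 2704 CPM in IR tumours and 1266, 1655, 2189 and 1220 CPM in control tumours, which overlapped (0.63, adjusted p 0.537 by edgeR).

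The members below were chosen after their values were seen, because their groups did not overlap or DESeq2 called them. Col8a1 had the smallest p, with 150, 98.3, 251, 313 and 194 CPM in IR tumours, against 69.3, 67.2, 83.1 and 48.2 CPM in control tumours. The difference was 3.01-fold (log2 1.59 ± 0.313, adjusted p 0.369 by edgeR, 0.000119 by DESeq2). Col5a2 had 325, 318, 596, 470 and 346 CPM in IR tumours and 178, 235, 287 and 261 CPM in control tumours. Col6a3, which joins Col6a1 and Col6a2 in type VI filaments, had 243, 312, 456, 364 and 306 CPM in IR tumours and 102, 207, 153 and 228 CPM in control tumours, again without overlap. The ratio of Col6a3 to Col6a1 per kilobase was 0.209 to 0.365 in IR and 0.09 to 0.209 in control tumours. Col12a1, Col11a1 and Col5a1, also called by DESeq2, overlapped between the groups, with log2 fold changes of 1.00, 2.57 and 0.73 (edgeR adjusted p 0.494, 0.452 and 0.494).

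The basement membrane chains tested had a median log2 fold change of 0.38. Col4a1 had 733, 699, 931, 804 and 582 CPM in IR tumours and 397, 487, 515 and 619 CPM in control tumours, with overlap and a log2 fold change of 0.57 (adjusted p 0.494, edgeR). Col4a2 had 375 to 550 CPM in IR and 220 to 382 CPM in control tumours. Col6a1 had 473, 485, 507, 502 and 448 CPM in IR tumours, against 460, 401, 470 and 830 CPM in control tumours. Col18a1 had 392 to 602 CPM in IR and 323 to 611 CPM in control tumours, and Col7a1 had 406 to 666 CPM in IR and 333 to 571 CPM in control tumours. The groups overlapped for both.

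**Figure D5:**
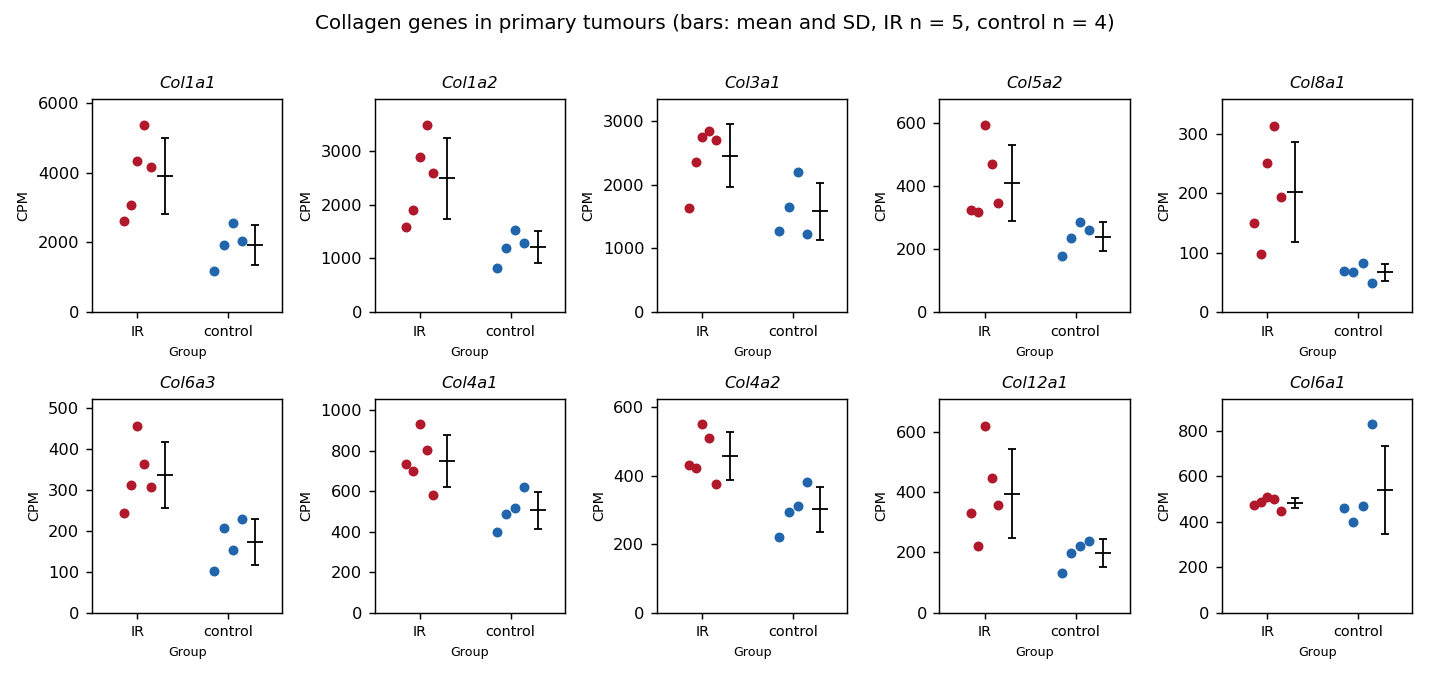
CPM of 10 collagen genes in each primary tumour, with mean and SD (IR n = 5, control n = 4). For Col1a1, Col1a2, Col5a2, Col8a1 and Col6a3 all IR tumours lie above all control tumours, whereas Col6a1 overlaps.

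Skeletal muscle markers summed to 11114 CPM in IR 4 and 1605 CPM in IR 5, and to 9.11 to 218 CPM in the other tumours. Without these IR tumours, an alternative chosen after seeing the data, the log2 fold change was 0.79 for Col1a1, 0.82 for Col1a2, 0.78 for Col5a2, 0.97 for Col6a3 and 1.31 for Col8a1 (adjusted p 0.297 for each, edgeR). Lymphocyte markers summed to 464 CPM in IR 2 and 394 CPM in control 2. Without both of these, Col1a1 differed by 1.1 and Col8a1 by 1.77. Fibroblast markers, 10 of 10 tested and none called, summed to 632 to 1152 CPM in IR and 829 to 995 CPM in control tumours, and pericyte and smooth muscle markers to 334 to 1922 CPM in IR and 280 to 502 CPM in control tumours. Their part in the collagen levels was not tested. None of the 63 tested collagen-handling genes was called. Lox had 130 ± 38.1 CPM in IR (SD, n = 5) and 82.5 ± 14.5 CPM in control tumours (SD, n = 4), and Postn had 565 ± 133 CPM in IR and 358 ± 59.1 CPM in control tumours.

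The miRNA experiment had labels in conflict. The titles and treatment labels of its libraries name the opposite treatment from their library names, so each direction below holds for the groups as titled and is turned round if the library names are right. The collagens differed in both directions between these groups. Of 11 members tested, 5 were higher and 5 lower in the libraries titled miR-145a-3p, where 56.7% of all genes were called (28% higher and 28.7% lower), and groups did not overlap in 10 members and in 73% of all genes. The median member differed by 0.18 on the log2 scale, against -0.01 over all genes. The filter asked for 3 CPM in at least 3 libraries, and the group titled scramble had 2. A member high in that group alone could not be tested, so the counts do not weigh the 2 directions evenly. Col20a1 had 4.17 and 6.5 CPM in libraries titled scramble and 0.115 to 0.236 CPM in those titled miR-145a-3p, and it was not tested. Nor was Col11a2, with 4.97 and 6.02 CPM against 0.697 to 1.38 CPM.

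Col7a1 had 313, 336 and 352 CPM in libraries titled miR-145a-3p, against 692 and 971 CPM in those titled scramble, a log2 difference of -1.32 ± 0.128 (SE; adjusted p 0.000183, edgeR). Col8a1 had 138, 157 and 160 CPM in libraries titled miR-145a-3p, against 79.4 and 68.7 CPM in those titled scramble, a difference of 1.03 ± 0.088 (adjusted p 0.00012, edgeR). These differences, in opposite directions, were the largest among members above 10 CPM. Col16a1 had 99.4, 98.9 and 108 CPM in libraries titled miR-145a-3p, against 149 and 177 CPM in those titled scramble (-0.67, adjusted p 0.000376, edgeR). Col4a5 had 16.7, 16.5 and 17.5 CPM in libraries titled miR-145a-3p, against 23.4 and 23.5 CPM in those titled scramble (-0.47, adjusted p 0.00175). Col5a1 had 38.2, 43.6 and 43.3 CPM in libraries titled miR-145a-3p, against 55.7 and 54.6 CPM in those titled scramble (-0.40, adjusted p 0.00275, edgeR). Col27a1, under 10 CPM and named for the count, was also lower, with 3.11 to 3.58 CPM in libraries titled miR-145a-3p and 7.04 to 10.4 CPM in those titled scramble.

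Col4a1, Col4a2, Col18a1 and Col12a1 joined Col8a1 among the members that were higher in the libraries titled miR-145a-3p. Col4a1 had 459, 475 and 479 CPM there, against 398 and 331 CPM in libraries titled scramble (0.37, adjusted p 0.00612, edgeR). Col4a2 had 298, 301 and 316 CPM in libraries titled miR-145a-3p, against 274 and 243 CPM in those titled scramble (0.24, adjusted p 0.0179). This call was lost without miR-145a-3p replicate 2 (0.052) or 3 (0.0854, edgeR). Col18a1 had 270, 267 and 290 CPM in libraries titled miR-145a-3p, against 221 and 195 CPM in those titled scramble (0.41, adjusted p 0.0021, edgeR). Col12a1 had 13.8, 13.6 and 14.8 CPM in libraries titled miR-145a-3p, against 11.6 and 9.47 CPM in those titled scramble (0.41, adjusted p 0.0223), a call lost without scramble replicate 2 or any miR-145a-3p replicate (0.052 to 0.0824, edgeR). Col6a1 overlapped and was not called, with 11.1 to 13.3 CPM in libraries titled miR-145a-3p and 10.2 to 11.7 CPM in those titled scramble. Of 42 tested collagen-handling genes, 16 were higher and 9 lower, a share near the 56.7% called over all genes. Mmp15, a membrane-bound protease, was higher by 1.68 (adjusted p 0.000145), and Lamc1, a laminin chain of basement membranes, by 0.83 (adjusted p 0.000404, edgeR), and Adgrg1 had a log2 fold change of -0.90.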

How the data were processed

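Per the labels' protocols, the 38 libraries were made with a kit that keeps the strand of messenger RNA. The deposited tables held expected counts per gene, made with RSEM (culture, brain) or salmon (tumour, miRNA), per the file headers and names. The authors used an nf-core pipeline and DESeq2, per the labels' series text, and the submitters' processing notes list Trimmomatic, STAR and featureCounts. The notes list GRCm38 and GRCm39, without saying which belongs to which table. Totals were 8455412 to 12785398 counts per library in culture, 8790616 to 13272583 in brain, 17392887 to 21909370 in tumours and 24972592 to 32637552 in the miRNA table. Symbols of the culture and brain tables came by identifier from the tumour table (52139 of 55487 genes) and a reference table (3257), leaving 91 unnamed. In the culture table, 3 columns of no sample were not used. IR columns of the culture and brain tables were matched to their group, and their replicate numbers are those of the column names. The tumour control called replicate 4 has another number in its library name.

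Expected counts were rounded. Genes at 3 CPM in at least 3 libraries of an experiment were kept, scaled by trimmed means of M values and tested in R 4.3.3 with edgeR 4.0.16, fitting each experiment's groups jointly and without covariates. Adjusted p-values are Benjamini-Hochberg over all genes tested, called at 0.05. The biological coefficient of variation was 0.0576, 0.159, 0.326 and 0.0819 in culture, brain, tumour and miRNA libraries. CPM are relative to the summed counts of tested genes times the scaling factor, and limits for a count of 0 cover counting error only. Alternatives were DESeq2 1.42.0, other scaling, no filter, a replicate block and leaving out libraries. Members, lists and tests were chosen with earlier results of these data known. Values are given for called members with a group mean of 10 CPM or more, for the 5 highest members of each table and for list genes with the smallest adjusted p. Tests across all genes were checked on simulated data.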

Additional observations from a re-analysis of the deposited data

Results flagged for a closer look

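In 5 of 55 member and group sets examined, a library stood apart from the rest of its group by Dixon's criterion, which chance meets in about 1 in 20 sets. Col11a1 had 36.3 CPM in brain IR replicate 4, with the nearest IR library at 26.4 CPM. Col9a3 had 55.0 CPM in brain IS replicate 5, with the nearest at 35.0 CPM. In brain control replicate 3, Col12a1 was low at 199 CPM (nearest 268 CPM) and Col18a1 was high at 823 CPM (nearest 696 CPM). Col6a1 had 830 CPM in tumour control replicate 4, with the nearest control tumour at 470 CPM.

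Some members moved in opposite directions in different experiments, each without overlap of the groups, and these differences between experiments were not tested. With IR, Col8a1 had a log2 fold change of -0.17 in culture and 1.59 in tumours, Col1a2 had -0.78 in brain and 1.04 in tumours, and Col5a2 had -1.03 in brain and 0.77 in tumours. With IS, Col12a1 had 0.56 in culture and -0.82 in brain, and Col18a1 had 0.17 in culture and -0.48 in brain. The tumour values did not pass edgeR's threshold.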

How the results depend on the processing

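No result reversed under any alternative. The number of called members was within 1.5 times the main count except as follows. In the tumours DESeq2 called 8 and edgeR 0. Between brain IR and IS libraries DESeq2 called 5, edgeR without a filter on low counts called 3, and edgeR with it called 0. Over all 26342 genes of the unfiltered fit, 112 were higher and 222 lower. Without the filter, 16 members were called in the miRNA experiment (5 higher and 11 lower), against 10 with it, over more members tested. Over all 25492 genes, 4250 were then higher and 3749 lower. The unfiltered fit includes members high in the 2 libraries titled scramble alone, which the filter could not keep. The summed collagen CPM of untreated culture was 1847 relative to total counts, against 1882. The cause of the differences between tools was not tested. Leaving out single libraries gave 3 to 7 called members for IR and 7 to 9 for IS exosomes against untreated cells, 4 to 7 for IR against IS exosomes, 2 to 8 for brain IR and 4 to 7 for brain IS against control, 0 to 8 for brain IR against IS, 0 to 0 for the tumours and 8 to 10 for the miRNA experiment. Over all genes, such fits called 514 to 697 higher and 538 to 705 lower for IR exosomes against untreated cells. For IS exosomes these were 781 to 895 and 717 to 793, and for IR against IS 130 to 388 and 165 to 483. Against brain control they were 526 to 998 and 310 to 805 in IR, and 226 to 438 and 239 to 434 in IS. Between brain IR and IS they were 0 to 542 and 0 to 597, and tumours had at most 1 gene. Leaving out miR-145a-3p libraries gave 2302 to 2492 and 2396 to 2587. With 1 scramble library left, that library is assumed to vary like the other group. Labels share replicate numbers between groups, but the numbers were not taken as pairs. Deviations of same-numbered libraries correlated by -0.21 to 0.758, not above 0.1 in every pair of any comparison. In the tumours all were positive, at 0.135, 0.758, 0.204 and 0.081 for replicates 1 to 4. The last of these involves control replicate 4, which has another number in its library name. Pairing of the tumours by library name was not tested, and the replicate block used the replicate numbers. With the replicate block, 6, 8 and 7 members were called in the culture comparisons (IR and IS against untreated, IR against IS). It called 5 and 5 in brain IR and IS against control, 0 between brain IR and IS, 0 in the tumours and 8 in the miRNA experiment. Over all genes, the block called 673 higher and 691 lower, 1062 and 954, and 267 and 351 in the same culture comparisons. Against brain control it called 716 higher and 585 lower in IR, and 301 and 329 in IS. Between brain IR and IS it called 0 genes, in the tumours 1, and in the miRNA experiment 1871 higher and 2119 lower. A count of 3 or fewer per library limits the members listed as having no counts.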
